A study of Homo sapiens with 12 samples.

Results

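The genes of antigen presentation described here were 32 of the 23273 genes listed for each line, chosen by gene symbol. They encode the MHC class I and class II chains and the proteins that prepare, load and regulate them. RNA was sequenced in 12 libraries of the BRAF-mutant melanoma cell lines COLO858 and MMACSF. Each line gave 2 libraries under DMSO, the vehicle, and 2 each after 24 h and 48 h in 0.2 μM vemurafenib, an inhibitor of mutant BRAF. Both lines were grown in culture in 5% serum, COLO858 in RPMI medium and MMACSF in DMEM/F12, so line and medium cannot be told apart. When the DMSO libraries were harvested is not labelled. The changes at 24 h and at 48 h were therefore taken against the same pair of DMSO libraries, and time in culture and drug cannot be told apart. Values are the authors' FPKM, read fragments scaled to transcript length and library size. A gene was taken as measured in a line where 1 or more of its groups averaged 1 FPKM or above.

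MHC class I molecules show peptides from inside the cell to CD8+ T cells. The proteasome cuts proteins into peptides, the TAP transporter carries these into the endoplasmic reticulum, the ERAP peptidases trim them, and chaperones load them onto a heavy chain paired with B2M. NLRC5 is the master activator of the class I genes. MHC class II molecules show peptides from endosomes to CD4+ T cells, guided by the invariant chain CD74. Their genes are switched on by CIITA, which is recruited to class II promoters by the RFX complex (of which RFX5 is a subunit) and NF-Y. Class II is made mostly by specialised immune cells and after exposure to interferon-gamma, but some melanomas make it without either.

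Of the 32 genes, 12 were measured in COLO858, 17 in MMACSF and 11 in both. The 14 genes measured in neither line were HLA-C, HLA-E, HLA-F, HLA-G, TAP1, TAP2, TAPBP, PSMB8, PSMB9, HLA-DPA1, HLA-DPB1, HLA-DMA, HLA-DMB and HLA-DOA. Of these, 13 were listed at 0 in all 12 libraries, and TAP2 reached 0.0157 FPKM in 1 MMACSF library under DMSO. All 14 lie in the MHC on chromosome 6, which holds 18 of the 32 genes. All 14 genes that lie elsewhere were measured in at least 1 line. Between HLA-F and TAPBP (hg19, chr6:29690552-33282061), 118 of 133 protein-coding genes were listed at 0 in all 12 libraries, which is 88.7%. On the rest of chromosome 6 this held for 13.7% of 731 genes, and on the other chromosomes for 12.7% of 16274 genes. The genes at 0 in the span include TUBB, a tubulin, RPS18, a ribosomal protein, and DDX39B, an RNA helicase, which were picked out after their values were seen and which every cell uses. A 0 in the MHC is thus reported only as listed at 0, and neither an absence nor a change of these genes is read from it. The 4 genes of the span that were measured (HLA-B, HLA-DRA, HLA-DRB1 and HLA-DQA1) are compared between groups of MMACSF, and their level is not set against that of genes elsewhere.

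**Figure D1:**
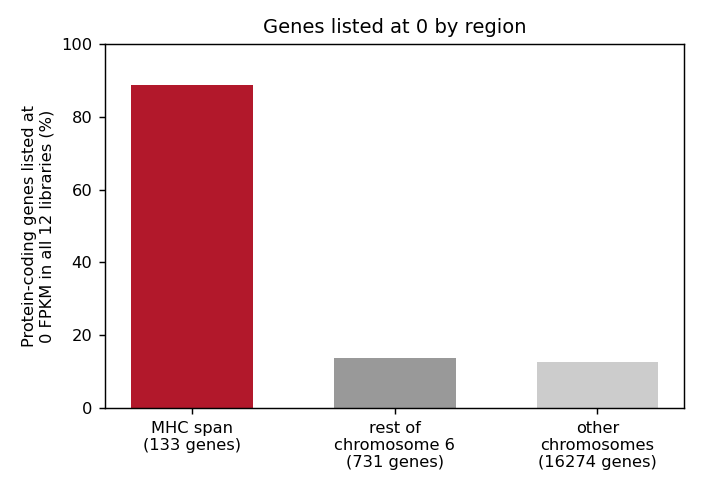
Bars show the share, in percent, of protein-coding genes listed at 0 FPKM in all 12 libraries, by region (MHC span, rest of chromosome 6, other chromosomes). The MHC span stands at 88.7%, against 13.7% and 12.7% in the other regions.

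MMACSF and COLO858 differed in CD74 and CIITA under DMSO. CD74, the invariant chain, was listed at 1124 and 941 FPKM in the MMACSF libraries under DMSO and at 0.50 and 0.364 FPKM in those of COLO858. CIITA, the class II transactivator, was listed at 9.35 and 7.89 FPKM in MMACSF and at 0.0654 and 0.0180 FPKM in COLO858. HLA-DRA, HLA-DRB1 and HLA-DQA1 were listed at 0 in all 6 COLO858 libraries and above 0 in all 6 of MMACSF. They lie in the MHC, so no absence in COLO858 and no line difference is read from a 0. The tables of the lines are separate and may have been scaled apart, so the levels of CD74 and CIITA are set side by side without a test. Across all 6 COLO858 libraries, DMSO included, CD74 stayed between 0.364 and 0.769 FPKM, and CIITA between 0.0180 and 0.139 FPKM.

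In MMACSF genes of the class II pathway were lower after 48 h in vemurafenib, but not after 24 h. The fall against DMSO passed the test at 48 h for CD74, HLA-DQA1 and CIITA, and with them for CALR, a chaperone of class I loading. These were 4 of the 17 measured genes (23.5%), all lower, where 8.83% of all 12599 genes tested in the line passed in either direction and 5.41% were lower (limma on log2(FPKM + 1), adjusted p under 0.01). The median log2 fold-change of the 17 genes was -0.48, against 0.06 over all genes tested, and 13 of the 17 were negative. In bulk RNA, fewer cells that express a gene and less RNA per cell cannot be told apart.

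CIITA (hg19, chr16:10960079-11036878, plus strand) was listed at 9.35 and 7.89 FPKM under DMSO, at 8.85 and 8.93 FPKM at 24 h, and at 2.38 and 1.82 FPKM at 48 h. The 48 h libraries lay below all 4 others, and those at 24 h lay within the DMSO pair. The log2 fold-change was 0.04 at 24 h (SE 0.16, adjusted p = 0.879) and -1.63 at 48 h (SE 0.16, adjusted p = 0.0033), a mean 4.10-fold lower than under DMSO. From 24 h to 48 h it was -1.68 with an adjusted p of 0.0285, past 0.05 but not past 0.01.

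CD74 (chr5:149781200-149792532, minus strand) was listed at 1124 and 941 FPKM under DMSO, at 1351 and 1163 FPKM at 24 h, and at 313 and 289 FPKM at 48 h. Both 24 h libraries were above both DMSO libraries, and both 48 h libraries were below all others. The log2 fold-change against DMSO was 0.29 at 24 h (SE 0.14, adjusted p = 0.219) and -1.77 at 48 h (SE 0.14, adjusted p = 0.0019), a mean 3.43-fold lower. From 24 h to 48 h CD74 fell by 2.05 on the log2 scale (SE 0.14, adjusted p = 0.0081).

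HLA-DQA1 (chr6:32595956-32614839, plus strand), the alpha chain of HLA-DQ, was listed at 10.3 and 11.5 FPKM under DMSO, at 19.6 and 16.5 FPKM at 24 h, and at 2.71 and 2.41 FPKM at 48 h. The 3 groups did not overlap. Its log2 fold-change against DMSO was 0.67 at 24 h (SE 0.15, adjusted p = 0.0353), which did not pass 0.01, and -1.74 at 48 h (SE 0.15, adjusted p = 0.0023). From 24 h to 48 h it fell by 2.42 on the log2 scale (SE 0.15, adjusted p = 0.0057), a mean 7.06-fold lower.

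HLA-DRB1 (chr6:32545679-32557625, minus strand), the beta chain of HLA-DR, was listed at 43.5 and 37.7 FPKM under DMSO, at 49.2 and 44.2 FPKM at 24 h, and at 23.2 and 20.1 FPKM at 48 h. HLA-DRA (chr6:32407655-32412823, plus strand), its alpha chain partner, was listed at 1.99 and 1.91 FPKM, then 1.75 and 2.98 FPKM, then 0.356 and 0.442 FPKM. In both genes the 48 h libraries lay below all 4 others. Their log2 fold-changes at 48 h were -0.87 (SE 0.14, adjusted p = 0.0117) and -1.08 (SE 0.22, adjusted p = 0.0211), neither past 0.01. HLA-DRA met the minimum of 1 FPKM through its DMSO and 24 h groups and lay below it at 48 h. HLA-DRB1 and HLA-DRB5 are close in sequence, as are HLA-DQA1 and HLA-B to others of their families, so the authors' counting may have split their reads and their values are uncertain. How reads that map to several places were shared is not given in the sources used here.

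**Figure D2:**
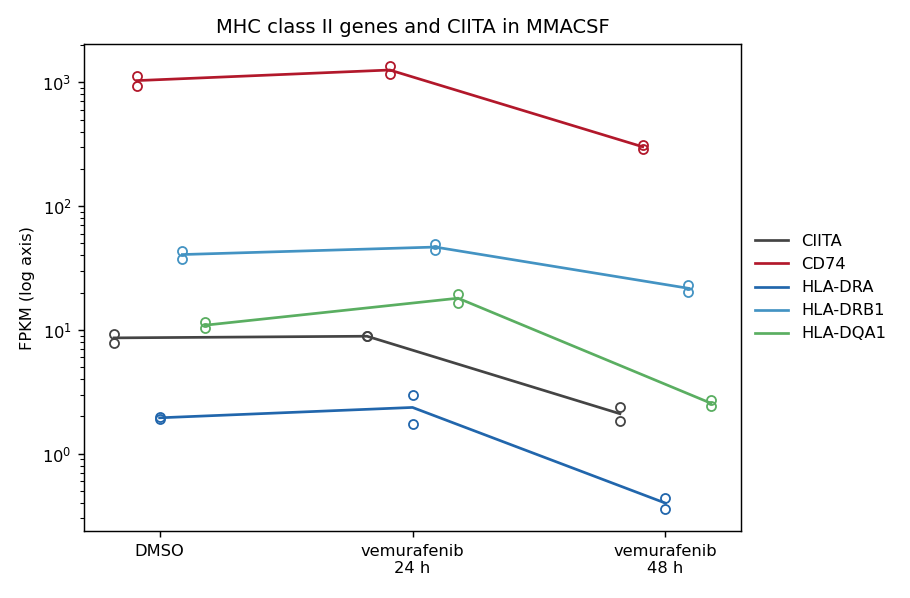
FPKM (log axis) of CIITA, CD74, HLA-DRA, HLA-DRB1 and HLA-DQA1 in MMACSF under DMSO and after 24 h and 48 h in vemurafenib, with each library as an open circle and lines through the group means. In all 5 genes both 48 h libraries lie below the 4 others, as for CD74 at 313 and 289 FPKM.

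From 24 h to 48 h, CD74 and HLA-DQA1 were the 2 of 17 genes called in MMACSF, both lower (11.8%). Few genes passed in this comparison: 0.222% of all genes tested in either direction, and 0.111%, or 14 genes, lower. By size of change HLA-DQA1 ranked 8 and CD74 ranked 11 among the 14. Of the 17 genes, 8 were at an unadjusted p under 0.05, CIITA, HLA-DRB1 and HLA-DRA among them. The share of all genes at that p was not counted, so the 8 have no background.

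The calls in MMACSF at 48 h rest on 2 libraries a group. Without any 1 of the 4 libraries compared, 0 of the 4 calls passed 0.01, with every direction kept. The lone library is then assumed to vary like the other groups, and over all genes the calls went from 1113 to between 114 and 135. The adjusted p then ran from 0.0138 to 0.0236 for CD74, from 0.0218 to 0.0288 for HLA-DQA1, from 0.0250 to 0.0330 for CIITA and from 0.0488 to 0.0673 for CALR. For the change from 24 h to 48 h it ran from 0.0474 to 0.0671 for CD74 and from 0.0325 to 0.0581 for HLA-DQA1.

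The other class II genes looked at were 19 further chains, regulators and endosomal proteases, of which 15 were tested in MMACSF. At 48 h 4 of the 15 were lower (26.7%) and 0 higher, against 5.41% of all genes tested that were lower. HLA-DQB1, the beta chain of HLA-DQ, was listed at 18.9 and 15.3 FPKM under DMSO and at 5.42 and 5.82 FPKM at 48 h, a log2 fold-change of -1.44 (SE 0.16, adjusted p = 0.0043). HLA-DRB5, a further HLA-DR beta chain, was listed at 92.9 and 82.8 FPKM and then at 36.9 and 36.5 FPKM, a log2 fold-change of -1.23 (SE 0.11, adjusted p = 0.0027). The other called genes code for endosomal enzymes: IFI30, a thiol reductase, with a log2 fold-change of -1.28 (SE 0.20, adjusted p = 0.00996), and CTSB, the protease cathepsin B. In COLO858 this list had 12 genes tested and 1 called at each time (8.33%, near the 9.82% and 9.47% of all genes), IFI30, which was listed at 53.75 and 45.0 FPKM under DMSO and at 6.73 and 4.85 FPKM at 48 h. That is a log2 fold-change of -1.87 at 24 h and -2.90 at 48 h (SE 0.19, adjusted p = 0.0012).

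The promoters of CD74, HLA-DRB1 and HLA-DQA1 are shown because these genes fell or were lowest at 48 h, and that of B2M because it is driven by the same kind of module and was not called. Class II and class I promoters are known to share a conserved module that ends in the Y box, a CCAAT box bound by NF-Y. The sequences are RefSeq windows of 300 bases on GRCh38.p14, with 250 before and 50 after the start of transcription, read 5′ to 3′ on the gene's strand. Capitals mark each ATTGG or its reverse complement CCAAT. They are reference sequences, and the alleles of the lines may differ.

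CD74, chr5:150412861-150413160, minus strand: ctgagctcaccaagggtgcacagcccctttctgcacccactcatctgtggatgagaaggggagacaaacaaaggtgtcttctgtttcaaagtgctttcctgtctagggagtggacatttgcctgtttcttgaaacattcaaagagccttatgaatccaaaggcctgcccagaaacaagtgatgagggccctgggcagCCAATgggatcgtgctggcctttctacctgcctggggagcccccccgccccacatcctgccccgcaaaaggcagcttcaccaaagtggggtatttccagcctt
HLA-DRB1, chr6:32589799-32590098, minus strand: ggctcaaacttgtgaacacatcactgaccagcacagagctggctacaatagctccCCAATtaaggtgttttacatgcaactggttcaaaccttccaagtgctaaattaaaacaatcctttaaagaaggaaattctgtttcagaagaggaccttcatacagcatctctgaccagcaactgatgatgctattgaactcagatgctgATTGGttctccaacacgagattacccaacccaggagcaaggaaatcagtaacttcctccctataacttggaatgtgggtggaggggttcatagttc
HLA-DQA1, chr6:32637156-32637455, plus strand: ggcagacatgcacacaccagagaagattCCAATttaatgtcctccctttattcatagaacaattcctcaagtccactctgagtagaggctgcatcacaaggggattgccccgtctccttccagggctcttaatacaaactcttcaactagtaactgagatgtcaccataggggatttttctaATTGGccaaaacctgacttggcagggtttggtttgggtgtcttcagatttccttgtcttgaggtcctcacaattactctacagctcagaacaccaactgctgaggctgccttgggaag
B2M, chr15:44711267-44711566, plus strand: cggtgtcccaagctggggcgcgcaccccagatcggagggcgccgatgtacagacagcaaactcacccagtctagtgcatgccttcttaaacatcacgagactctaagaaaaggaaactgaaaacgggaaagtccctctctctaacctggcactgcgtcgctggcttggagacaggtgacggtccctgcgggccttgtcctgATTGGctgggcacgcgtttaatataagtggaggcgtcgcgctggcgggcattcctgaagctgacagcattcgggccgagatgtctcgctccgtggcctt

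The CCAAT box closest to the start begins 53 bases before it in CD74, 46 in HLA-DRB1, 68 in HLA-DQA1 and 49 in B2M. The letters ATTGG, on either strand, stand in 34.6% of all 35116 promoter windows, so a match says little. The longer CTGATTGG, which contains ATTGG, stands in 3.97% of windows and in those of 8 of the 27 genes with a window: HLA-B, HLA-C, HLA-F, HLA-G, B2M, RFX5, HLA-DRB1 and HLA-DMA. It was not found in those of CD74 and HLA-DQA1. An interferon response element, searched as TTTC repeated after a gap of 2 bases on either strand, stands in 3.57% of windows and in those of 12 of the 27 genes, PSMB10, PSME1, PSME2, ERAP1 and RFX5 among them. It is also in that of B2M, where 2 overlapping matches begin 144 and 138 bases before the start. A gene with several windows was counted where any of them held the letters, and HLA-E, PDIA3, NLRC5, CIITA and HLA-DRA had none. These motifs were chosen with the values known, and a match is a description of the letters only.

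Of the class I chains, B2M and HLA-B were measured in MMACSF, and neither was called at either time. B2M (hg19, chr15:45003556-45011049, plus strand), the light chain of every class I molecule, was listed at 735 and 861 FPKM under DMSO, at 1063 and 1140 FPKM at 24 h, and at 724 and 902 FPKM at 48 h. The 24 h libraries were above all others, and those of 48 h spanned the DMSO pair. The log2 fold-change was 0.47 at 24 h (SE 0.16, adjusted p = 0.0936) and 0.02 at 48 h, with a 95% interval from -0.37 to 0.41. HLA-B, the single heavy chain measured, was listed at 1.31 and 1.13 FPKM, then 3.27 and 1.34 FPKM, then 1.62 and 1.57 FPKM. Its 24 h libraries differed from each other more than the groups did, and its log2 fold-change was 0.51 at 24 h (SE 0.30, adjusted p = 0.279) and 0.23 at 48 h (SE 0.30, adjusted p = 0.616). In COLO858 HLA-B stayed between 0.312 and 0.890 FPKM and was not tested.

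In COLO858 B2M was listed at 408 and 534 FPKM under DMSO, at 426 and 551 FPKM at 24 h, and at 420 and 559 FPKM at 48 h. The groups overlapped almost fully, with replicate 2 the higher in each. The log2 fold-change was 0.05 at both times, with 95% intervals from -0.52 to 0.63.

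Of the loading chaperones, CALR fell at 48 h in MMACSF. CALR (calreticulin; chr19:13049392-13055303, plus strand), which holds the heavy chain for peptide, was listed at 448 and 409 FPKM under DMSO, at 434 and 385 FPKM at 24 h, and at 252 and 227 FPKM at 48 h. Its 24 h libraries overlapped those of DMSO and its 48 h libraries lay well below. The log2 fold-change at 48 h was -0.83 (SE 0.12, adjusted p = 0.0092), a mean 1.79-fold lower. It did not pass with libraries rescaled by median ratios, without the minimum of 1 FPKM, or with the spread taken from the 4 libraries compared.

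PDIA3, a disulphide isomerase of the loading complex, was listed at 127 and 151 FPKM under DMSO, at 123 and 146 FPKM at 24 h, and at 86.0 and 99.2 FPKM at 48 h, a log2 fold-change of -0.58 (SE 0.16, adjusted p = 0.0491). CANX (calnexin), which folds new heavy chains, was listed at 170 and 239 FPKM, then 158 and 190 FPKM, then 127 and 163 FPKM, with -0.48 at 48 h (SE 0.22, adjusted p = 0.171). Both 48 h libraries were below both DMSO libraries in each gene, and neither gene passed 0.01.

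These chaperones also serve the general folding of secreted proteins. Of 12 other genes of peptide handling, 2 were called at 48 h in MMACSF (16.7%, against 8.83% of all genes). Both are general chaperones of the endoplasmic reticulum. HSPA5 (BiP) went from 208 and 232 FPKM to 106 and 105 FPKM, a log2 fold-change of -1.05 (SE 0.11, adjusted p = 0.0034), and HSP90B1 had -0.93 (SE 0.11, adjusted p = 0.0047). The part of a wider chaperone change in that of CALR was not tested.

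In COLO858 CALR was listed at 715 and 655 FPKM under DMSO, at 983 and 918 FPKM at 24 h, and at 776 and 785.5 FPKM at 48 h. All 4 drug libraries were above both DMSO libraries. The log2 fold-change of CALR was 0.47 at 24 h (SE 0.11, adjusted p = 0.0291) and 0.19 at 48 h (SE 0.11, adjusted p = 0.250). PDIA3 was listed at 129 and 168 FPKM under DMSO, at 141 and 176 FPKM at 24 h, and at 118 and 159 FPKM at 48 h. CANX was listed at 87.8 and 130 FPKM, then 132 and 176 FPKM, then 78.8 and 113 FPKM. PDIA3 overlapped in all 3 groups, and CANX was highest at 24 h, with a log2 fold-change of 0.51 (SE 0.29, adjusted p = 0.249).

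The peptidases that trim peptides for class I did not pass the test. ERAP1 was listed in MMACSF at 11.1 and 14.4 FPKM under DMSO, at 12.7 and 15.01 FPKM at 24 h, and at 8.77 and 12.7 FPKM at 48 h. In COLO858 it was listed at 4.72 and 6.53 FPKM, then 7.01 and 9.22 FPKM, then 5.70 and 8.62 FPKM. The log2 fold-change of ERAP1 in COLO858 was 0.46 at 24 h (SE 0.26, adjusted p = 0.249), where both libraries were above the DMSO pair. ERAP2, its partner, was measured only in COLO858, at 5.00 and 7.22 FPKM under DMSO, 4.95 and 5.91 FPKM at 24 h, and 4.17 and 5.13 FPKM at 48 h. Its groups overlapped, with a log2 fold-change of -0.32 at 48 h (SE 0.21, adjusted p = 0.328). In MMACSF it lay between 0.481 and 0.828 FPKM.

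The immunoproteasome replaces the catalytic subunits of the proteasome under interferon, and of its subunits only PSMB10 was measured. PSMB10 was listed in MMACSF at 35.0 and 22.0 FPKM under DMSO, at 30.8 and 14.0 FPKM at 24 h, and at 25.6 and 19.5 FPKM at 48 h. In COLO858 it was listed at 23.2 and 14.3 FPKM, then 23.3 and 13.1 FPKM, then 22.7 and 12.4 FPKM. In all 6 groups the 2 libraries were further apart than the group means, and the SE was 0.41 in MMACSF and 0.42 in COLO858. Replicate 1 was the higher in each group, and the fit did not model the replicate number.

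PSME1 and PSME2 form PA28, the interferon-induced cap that opens the proteasome. PSME2 was listed in MMACSF at 77.6 and 76.8 FPKM under DMSO, at 56.0 and 55.8 FPKM at 24 h, and at 53.3 and 50.7 FPKM at 48 h. PSME1 was listed at 64.4 and 58.75 FPKM, then 47.0 and 49.0 FPKM, then 49.6 and 49.6 FPKM. In both genes all 4 drug libraries lay below both DMSO libraries. The log2 fold-changes of PSME2 were -0.46 at 24 h (SE 0.10, adjusted p = 0.0327) and -0.56 at 48 h (SE 0.10, adjusted p = 0.0158), and those of PSME1 were -0.35 and -0.31 (SE 0.11, adjusted p = 0.0782 and 0.0988). None passed 0.01.

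In COLO858 PSME2 was listed at 115 and 133 FPKM under DMSO, at 126 and 125 FPKM at 24 h, and at 113 and 129 FPKM at 48 h. PSME1 was listed at 107 and 110 FPKM, then 99.4 and 110 FPKM, then 97.6 and 93.4 FPKM. PSME2 overlapped in all groups, and the largest change of either was -0.18, for PSME1 at 48 h (SE 0.12, adjusted p = 0.308). The 6 constitutive counterparts of the proteasome were all tested in MMACSF at 48 h, where 6 were negative and 1 was called (16.7%, against 8.83% of all genes), PSMB7, with a log2 fold-change of -0.77 (SE 0.10, adjusted p = 0.0067).

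In COLO858 the single call was a regulator, RFX5. Of the class I and class II chains, only B2M was tested there. RFX5 (chr1:151313116-151319802, minus strand), the subunit of the RFX complex that binds the X box of class I and class II promoters, was listed at 18.4 and 20.6 FPKM under DMSO, at 47.0 and 53.0 FPKM at 24 h, and at 26.5 and 30.0 FPKM at 48 h. The 3 groups did not overlap. RFX5 rose at 24 h with a log2 fold-change of 1.32 (SE 0.15, adjusted p = 0.0041), and was at 0.51 at 48 h (SE 0.15, adjusted p = 0.0571). From 24 h to 48 h the log2 fold-change was -0.80 (SE 0.15, adjusted p = 0.0425). RFX5 was 1 of the 12 genes measured at 24 h (8.33%), where 9.82% of all 12696 genes tested passed in either direction and 4.11% were higher, so the share is near the background. Without any 1 of the 4 libraries compared, the adjusted p of RFX5 ran from 0.0257 to 0.0354, and with the spread taken from those 4 libraries alone it did not pass.

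At 48 h 0 of the 12 genes were called in COLO858, where 9.47% of all genes were. From 24 h to 48 h 0 were called, where 1.38% of all genes were. At an unadjusted p under 0.05 there were 2 and 3 of the 12, a share not counted over all genes.

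NLRC5, the class I transactivator, was listed in COLO858 at 0.752 and 0.714 FPKM under DMSO, at 1.502 and 1.71 FPKM at 24 h, and at 0.982 and 0.858 FPKM at 48 h. IRF1, an interferon-induced activator of class I and of NLRC5, was listed at 1.54 and 1.37 FPKM, then 2.40 and 2.68 FPKM, then 2.65 and 3.24 FPKM. In both genes all 4 drug libraries were above both DMSO libraries, at levels near 1 to 3 FPKM, where the added constant of 1 understates a change. NLRC5 met the minimum of 1 FPKM through its 24 h group alone, so its rise there is given as values and not as a test. The log2 fold-change of IRF1 was 0.68 at 48 h (SE 0.15, adjusted p = 0.0290).

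In MMACSF RFX5 was listed at 35.7 and 39.7 FPKM under DMSO, at 42.0 and 50.8 FPKM at 24 h, and at 35.8 and 42.3 FPKM at 48 h. Its log2 fold-change was 0.29 at 24 h (SE 0.16, adjusted p = 0.247) and 0.05 at 48 h, with a 95% interval from -0.34 to 0.43. NLRC5 was listed at 1.47 and 1.65 FPKM, then 2.07 and 1.62 FPKM, then 1.38 and 1.15 FPKM. IRF1 was listed at 2.29 and 2.20 FPKM, then 2.35 and 2.88 FPKM, then 2.18 and 2.60 FPKM. Of the 4 regulators, CIITA was the single call in MMACSF at 48 h, and the 3 others ran from -0.18 to 0.06 on the log2 scale. At 24 h 0 of the 17 genes were called in MMACSF, where 5.83% of all genes were. Of the 17, 4 were at an unadjusted p under 0.05, a share not counted over all genes.

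**Figure D3:**
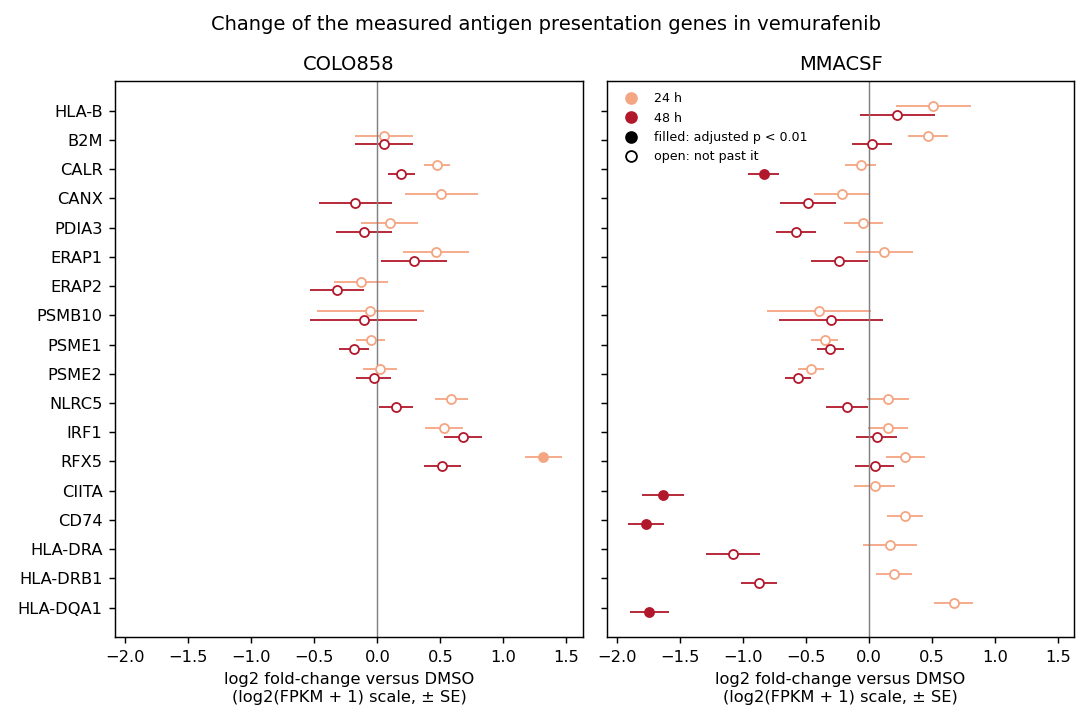
Points show the log2 fold-change against DMSO (log2(FPKM + 1) scale, bars ± SE from limma) at 24 h and 48 h for each measured gene in COLO858 and MMACSF, filled where the adjusted p was under 0.01. The filled points are RFX5 in COLO858 at 24 h (1.32) and CALR, CIITA, CD74 and HLA-DQA1 in MMACSF at 48 h (-0.83 to -1.77).

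Of the 11 genes measured in both lines, CALR was the 1 whose change at 48 h differed between them (9.09%), where 6.41% of the 11700 such genes passed. The difference for CALR, COLO858 minus MMACSF, was 1.02 (SE 0.15, adjusted p = 0.0026), with 0.19 in COLO858 and -0.83 in MMACSF. It passed in 3 of the 8 fits that each left out 1 library, and missed the threshold with rescaled libraries (adjusted p = 0.0104). Over all 13595 genes tested in either line, 7.48% passed in either direction and 4.19% in that of CALR, with CD74, CIITA and HLA-DQA1 among the 18 tested here. Those 3 genes were listed at 0 or below 1 FPKM in COLO858 and met the minimum through MMACSF alone, so their difference restates the fall in MMACSF and is no separate result.

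The change at 24 h differed for 0 of the 18 genes by limma, where 3.71% of all genes passed. Of the 18, 5 were at an unadjusted p under 0.05, a share not counted over all genes. RFX5 had the largest difference, 1.03 (SE 0.20, adjusted p = 0.0174). B2M differed by -0.41 at 24 h, with a 95% interval from -1.09 to 0.26. At 48 h it differed by 0.03, with an interval from -0.64 to 0.70, which is too wide to show that the lines acted alike. These intervals take no account of the replicate numbers, and what those pair is not labelled. With the replicate number as a block in limma, B2M at 24 h had an adjusted p of 0.0087, where 17.6% of all genes passed.

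With 0.05 in place of 0.01 as the threshold, the genes called in COLO858 were CALR, RFX5 and NLRC5 (which met the minimum through that group alone) at 24 h, IRF1 at 48 h, and RFX5 from 24 h to 48 h, where 25.8%, 26% and 6.37% of all genes passed. In MMACSF they were HLA-DQA1 and PSME2 at 24 h, 8 genes at 48 h with HLA-DRB1, HLA-DRA, PSME2 and PDIA3 added to the 4 above, and CIITA added to the 2 from 24 h to 48 h, where 20.3%, 24.1% and 0.421% passed. For the line differences, among the 11 genes measured in both lines, they were RFX5 at 24 h and CALR and PSME2 at 48 h. Of the 13595 genes tested in either line, 9.03% and 15.6% passed. The share of genes measured in both lines was not counted at 0.05.

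Of 15 genes of interferon signalling, which drives most antigen presentation genes, 11 were tested in COLO858 and 12 in MMACSF. IFNG and IFNB1, which encode interferons, were listed at 0 in all 12 libraries. STAT2 and IRF9, subunits of the transcription factor of type I interferon, were the genes called against DMSO. They were 2 of 11 at each time in COLO858 (18.2%, against 9.82% and 9.47% of all genes), 2 of 12 at 24 h in MMACSF (16.7%, against 5.83%) and, with STAT2 alone, 1 of 12 at 48 h (8.33%, near the 8.83% of all genes). STAT2 was listed in COLO858 at 5.83 and 6.68 FPKM under DMSO, at 24.4 and 27.8 FPKM at 24 h, and at 23.1 and 27.8 FPKM at 48 h. In MMACSF it was listed at 71.9 and 80.8 FPKM, then 185 and 207 FPKM, then 164 and 192 FPKM. STAT2 rose in both lines at both times, with log2 fold-changes of 1.90 and 1.86 in COLO858 (SE 0.16, adjusted p = 0.0022 and 0.0024) and of 1.35 and 1.21 in MMACSF (SE 0.14, adjusted p = 0.0044 and 0.0046).

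IRF9 was listed in COLO858 at 5.77 and 4.79 FPKM under DMSO, at 22.6 and 23.1 FPKM at 24 h, and at 17.3 and 17.7 FPKM at 48 h. In MMACSF it was listed at 11.4 and 12.4 FPKM, then 25.9 and 25.6 FPKM, then 20.0 and 19.2 FPKM. No drug library overlapped a DMSO library in either line. IRF9 rose by 1.93 and 1.56 on the log2 scale in COLO858 (SE 0.14, adjusted p = 0.0015 and 0.0027) and by 1.05 at 24 h in MMACSF (SE 0.12, adjusted p = 0.0056). In MMACSF at 24 h 0 of the 17 presentation genes were called at 0.01, and at 0.05 HLA-DQA1 (higher) and PSME2 (lower) were. Whether the rise of STAT2 and IRF9 bears on them was not tested.

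**Figure D4:**
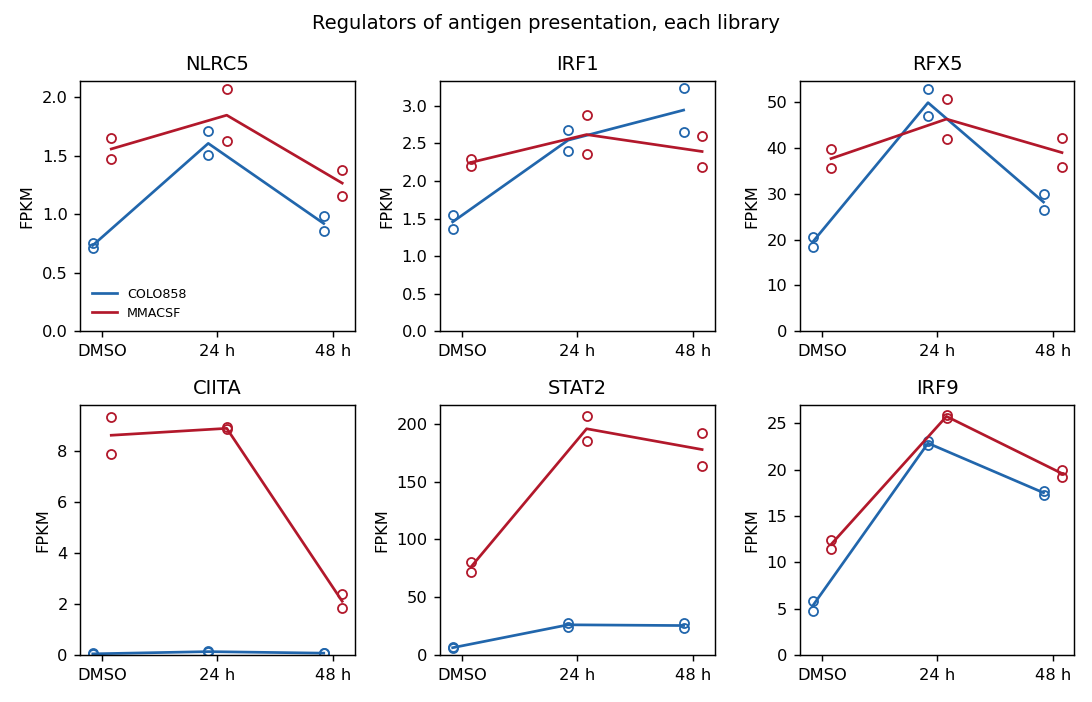
FPKM of NLRC5, IRF1, RFX5, CIITA, STAT2 and IRF9 under DMSO and after 24 h and 48 h in vemurafenib, with each library as an open circle and lines through the group means of COLO858 (blue) and MMACSF (red). RFX5 peaks at 24 h in COLO858, at 47.0 and 53.0 FPKM, and the drug libraries of STAT2 and IRF9 lie above those of DMSO in both lines.

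Of 11 class I-like molecules and lymphocyte ligands, 5 were tested in MMACSF and 1 was called at 48 h, where 8.83% of all genes passed. This was ULBP2, a ligand of the NKG2D receptor of killer cells, with 5.41 and 5.33 FPKM under DMSO and 2.32 and 2.19 FPKM at 48 h, a log2 fold-change of -0.97 (SE 0.14, adjusted p = 0.0087). In COLO858 4 were tested and 0 were called at either time.

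Most of the leukocyte markers, some of them of cells that make class II by profession, were low. PTPRC, which marks all leukocytes, was at most 0.242 FPKM in any library, and CD3E was listed at 0. AIF1 was also listed at 0, but it lies in the MHC span, so no absence is read from that. Of the 10 leukocyte markers, CD68, a lysosomal protein of many cell types, and LYZ, lysozyme, were the 2 with any group mean of at least 1 FPKM. CD68 was listed at 79.2 and 84.8 FPKM under DMSO in MMACSF, at 48.3 and 58.5 FPKM at 24 h, and at 76.7 and 83.4 FPKM at 48 h. In COLO858 it ran from 3.86 to 14.2 FPKM and fell at 48 h by 1.37 on the log2 scale (SE 0.20, adjusted p = 0.0096). The other 8 summed to 0.321 to 0.566 FPKM over the MMACSF libraries, and to 0.522 to 1.79 FPKM over those of COLO858. LYZ ran from 0.455 to 4.38 FPKM in MMACSF and was lower at 48 h by 1.61 on the log2 scale (SE 0.19). It met the minimum of 1 FPKM through its DMSO and 24 h groups, so this is given as a value and not as a test. The part of leukocytes in the class II values was not tested. Of 7 melanocyte lineage markers all 7 were at or above 1 FPKM in each MMACSF group, and their sum was 11158 to 11371 FPKM under DMSO and 16826 to 17549 FPKM at 48 h. In COLO858 5 or 6 reached 1 FPKM, with MLANA below it in all groups. Against DMSO 3 of the 6 tested were higher in COLO858 at each time, and 1 and 3 of 7 in MMACSF at 24 h and 48 h. In either direction, 9.82% and 9.47% of all genes passed in COLO858, and 5.83% and 8.83% in MMACSF.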

How the data were processed

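RNA of 12 libraries, 2 per group, was analysed. Per the labels, libraries were stranded mRNA with ERCC spike-in, and the submitters' processing notes name TopHat, Cuffdiff and the build hg19. The authors deposited FPKM in 1 table per line. The annotation, versions, strand setting and handling of multiply mapped reads are not given in the sources used here. All 12 columns mapped to a sample, with 0 unused. FPKM keep no read count, so depth is unknown. The FPKM of a library summed to 670310 to 1013040 in COLO858 and 726083 to 856083 in MMACSF, and replicates correlated at 0.966 to 0.976 (Pearson, log2(FPKM + 1), all genes).

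Each line was fitted with limma 3.58.1 (R 4.3.3), 3 groups on log2(FPKM + 1), trended empirical Bayes, for genes averaging 1 FPKM or above in 1 or more groups. Line differences were interactions over 12 libraries in 6 groups. P-values are two-sided, Benjamini-Hochberg adjusted over all genes tested, with a threshold of 0.01, and measure only the spread between these libraries, which came from replicate plates. Fold-changes on the log2(FPKM + 1) scale understate those of low genes. The fit was tested on simulated data. The genes and lists were chosen with earlier results of these data known. Values are given for every measured gene, and tests for called genes and the largest changes of each group. Among the other lists at most 3 called genes are given with values, and 1 gene is not reported here. Coordinates are from GENCODE v44 on GRCh37, the same assembly as hg19, and promoters from RefSeq on GRCh38.p14. Alternatives were a constant of 0.1, no minimum, median-ratio rescaling, small RNA genes left out, a replicate block, a threshold of 0.05, a fit of only the 4 libraries of a comparison, and each library omitted in turn.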

Additional observations from a re-analysis of the deposited data

Results flagged for a closer look

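The change of CALR from DMSO to 48 h differed between COLO858 and MMACSF by 1.02 on the log2 scale, COLO858 minus MMACSF, in a test of the difference itself over all 12 libraries. CALR was well expressed in both lines. Its log2 fold-change was -0.83 in MMACSF, which was called, and 0.19 in COLO858, which was not. CALR was 1 of the 11 genes measured in both lines (9.09%), where 6.41% of the 11700 such genes passed. The difference lost the threshold in 5 of the 8 fits that each left out 1 library, with adjusted p from 0.0073 to 0.0133. The same test passed for CD74 (1.88), CIITA (1.67) and HLA-DQA1 (1.74). These 3 were listed at 0 or below 1 FPKM in every COLO858 group, so the values restate the fall in MMACSF and are no independent result.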

How the results depend on the processing

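Over 83 refits of single called genes, with line differences of genes measured in 1 line left out, 0 reversed, 40 stayed past the threshold and 43 did not. Each call within a line was lost without any 1 of the 4 libraries compared, with its direction kept. Each such fit leaves 1 library in a group. For the line difference at 48 h, that of CALR then ran from 0.95 to 1.10 on the log2 scale. With a threshold of 0.05 in place of 0.01 the counts were 3, 1 and 1 in COLO858 (24 h, 48 h, 48 h against 24 h). In MMACSF they were 2, 8 and 3, and for the line differences at 24 h and 48 h they were 2 and 7. Of the line differences, only RFX5 at 24 h and CALR and PSME2 at 48 h were of genes measured in both lines. For MMACSF at 48 h against 24 h the count went from 2 to 0 without the minimum and with the 4 libraries compared only, and to 1 with rescaled libraries. The 4 libraries alone also gave 0 for COLO858 at 24 h, and rescaling gave 1 for the line difference at 24 h. The causes were not tested. The labels give the groups shared replicate numbers but not what they pair. Same-numbered libraries deviated together, with correlations of 0.196 to 0.211 in COLO858 and 0.0628 to 0.113 in MMACSF (0.757 to 0.791 and 0.59 to 0.673 without small RNA genes). With the replicate number as a block the counts were 4, 2 and 2 in COLO858, 2, 8 and 3 in MMACSF, and 5 and 9 for the line differences. Calls over all genes rose too, to 43.7% to 45% of genes in COLO858 and to 26.1% and 30.1% in MMACSF against DMSO. From 24 h to 48 h the block called 18% of all genes in COLO858 and 0.254% in MMACSF. Between the lines it called 17.6% of all genes at 24 h and 25.3% at 48 h. Of the genes it called between the lines at 48 h, CALR, PDIA3, PSME2 and RFX5 were measured in both. The others, CD74, CIITA, HLA-DQA1, HLA-DRA and HLA-DRB1, were measured in MMACSF alone. The genes the block added in MMACSF at 48 h were CANX, HLA-DRB1, PDIA3 and PSME2, and those of the line difference at 24 h were RFX5, CALR, CANX, PSME2 and B2M. Unknown depth limits the genes near 1 FPKM, HLA-B, HLA-DRA, NLRC5 and IRF1.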

Other observations

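JAK2, the kinase that carries the interferon-gamma signal, and CD274, which encodes PD-L1, stood apart between the lines. This was noticed after their values were seen, and the levels come from separate tables, so they are given with no test. JAK2 was at most 0.0344 FPKM in COLO858, with 4 of 6 libraries listed at 0, and between 4.72 and 7.24 FPKM in MMACSF. CD274 was listed at 0 in all 6 COLO858 libraries and lay between 0.132 and 1.48 FPKM in MMACSF. Both lie on chromosome 9, with PDCD1LG2 (PD-L2) beside CD274. Of the 20 protein-coding genes within 1 Mb of this group, ERMP1 and RANBP6 were also listed at 0 in all 6 COLO858 libraries, as were 5 genes at or near 0 in both lines. ERMP1 and RANBP6 were listed in MMACSF at 12.9 to 18.1 FPKM and 8.69 to 13.0 FPKM. KIAA2026, between them, was at most 0.0126 FPKM in COLO858 and 4.10 to 9.22 FPKM in MMACSF. MLANA lies inside the same stretch and was at 0.299 to 0.725 FPKM in COLO858 and 962 to 2312 FPKM in MMACSF. IL33 and TPD52L3, beyond RANBP6, were at or near 0 in both lines. The nearest genes on either side at or above 1 FPKM in all COLO858 libraries were RCL1 (chr9:4792944-4885917, hg19) at 2.37 to 9.39 FPKM, and UHRF2 (chr9:6413151-6507054) at 5.31 to 7.16 FPKM. No DNA data were used here.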
